A study of Equus caballus with 40 samples.

Results

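Secreted growth factor genes were followed in equine chondrocyte pellets that had been inflamed with interleukin-1β (IL-1β) and then given autologous serum products. The list named 8 genes: the fibroblast growth factors FGF7, FGF2 and FGF18, the vascular growth factors VEGFC, ANGPT4 and ANGPT1, hepatocyte growth factor (HGF) and the platelet-derived growth factor gene PDGFA. Probe sets were selected on the gene symbol in the platform annotation and, where a gene had several, on the mean log2 level across the 40 arrays. In fact 7 genes had 1 probe set each, among 16661 named genes and 30559 probe sets, so the level chose nothing, and PDGFA was not analysed here. The genes themselves were chosen by earlier results of these data, so their differences describe them and give no independent support to any pattern.

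Pellets are balls of cartilage cells that lay down their own matrix in culture. Per the labels, IL-1β of recombinant equine origin, a cytokine active in inflamed joints, was given at 5 ng/ml for 48 h. Those pellets then continued with the cytokine alone or had a serum product added to it. The products were autologous equine serum, labelled AES, a preparation labelled AES24h, and autologous conditioned serum, labelled ACS. Control pellets were cultured without IL-1β throughout, and no group received serum without IL-1β. A single pellet per group was homogenised for RNA. Pellets were harvested 2 h and 48 h after the serum step, with 4 arrays for each of the 10 combinations of treatment and time. IL-1β pellets of the 2 h harvest had thus been with the cytokine for 48 h beforehand. What distinguishes AES24h, the serum doses and the origin of the replicates (cultures or horses) are not given in the labels. The p-values therefore reflect the spread among these arrays alone, and that spread may be technical.

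Fibroblast growth factors bind receptor tyrosine kinases together with heparan sulfate, and in cartilage FGF2 is stored in the matrix around the cells, while FGF18 acts on chondrocytes largely through FGFR3. FGF7, also called keratinocyte growth factor, is made by mesenchymal cells and acts mainly on epithelial cells through a splice form of FGFR2. VEGFC drives lymphatic vessel growth through FLT4, the angiopoietins ANGPT1 and ANGPT4 are ligands of the endothelial receptor TEK, and HGF is the ligand of MET. Healthy cartilage has no vessels, so the best known target cells of several of these ligands lie in neighbouring tissues.

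The deposited values were log2 expression values, on which a difference of 1 is a 2-fold change. The array medians lay between 4.35 and 4.59, and a group mean under the lowest of them is described as not shown to be above background. Within groups, the correlation between arrays was 0.962 to 0.984. The lowest mean correlations with their own group were 0.964 and 0.965, for AES replicates 4 and 2 at 48 h. AES replicates 1 and 3 at 48 h were close to them, both at 0.967, as was AES replicate 1 at 2 h (0.966). Of 12 measured chondrocyte markers, 5 fell with IL-1β at 2 h, 8 fell with it at 48 h, and 3 (COL11A1, ACAN and CLEC3A) were lower with the mean of the sera than with IL-1β alone at 48 h. Of all 30559 probe sets, 904, 238 and 92 were called lower in these comparisons. The mean of these markers was 9.19 in control and 8.07 in IL-1β pellets at 2 h. At 48 h it was 9.30 in control, 7.84 in IL-1β and 7.11, 7.23 and 7.16 in AES, AES24h and ACS pellets. None of 10 endothelial markers was called in either IL-1β comparison or with the mean of the sera, and PECAM1, an endothelial adhesion molecule, never exceeded 2.76 on any array. In each group 7 to 9 of the 10 had means below every array median. ROBO4, another of the list, had group means of 4.55 to 4.89. The list mean of the endothelial markers lay between 3.27 and 3.82 on every array. Of 9 leukocyte markers none was called in these comparisons, 8 had group means below every array median in each group, and the list mean lay between 3.15 and 4.0 on every array. None of 5 red cell and platelet markers was called either. Of these, PPBP and ITGA2B had group means above the lowest array median, at 4.73 to 5.36 and 4.47 to 4.79. Over all probe sets 4.52% and 1.26% were called with IL-1β at 2 h and 48 h, and 0.0458% and 0.733% with the mean of the sera. At such shares, the absence of calls in lists this short says little about cell types. CD55 fell with IL-1β at 48 h, in a list of 6 genes used for synovial fibroblasts. That list held UCMA, a cartilage gene, so the list is not specific to those fibroblasts. Of 8 mural cell markers, ABCC9, a potassium channel subunit, rose with IL-1β at both times and with the sera at 48 h, and CSPG4, a surface proteoglycan, fell with IL-1β at both times. The part of these marker changes in the growth factor values was not tested. In bulk RNA fewer cells of a type and less RNA per cell cannot be told apart.

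**Figure D1:**
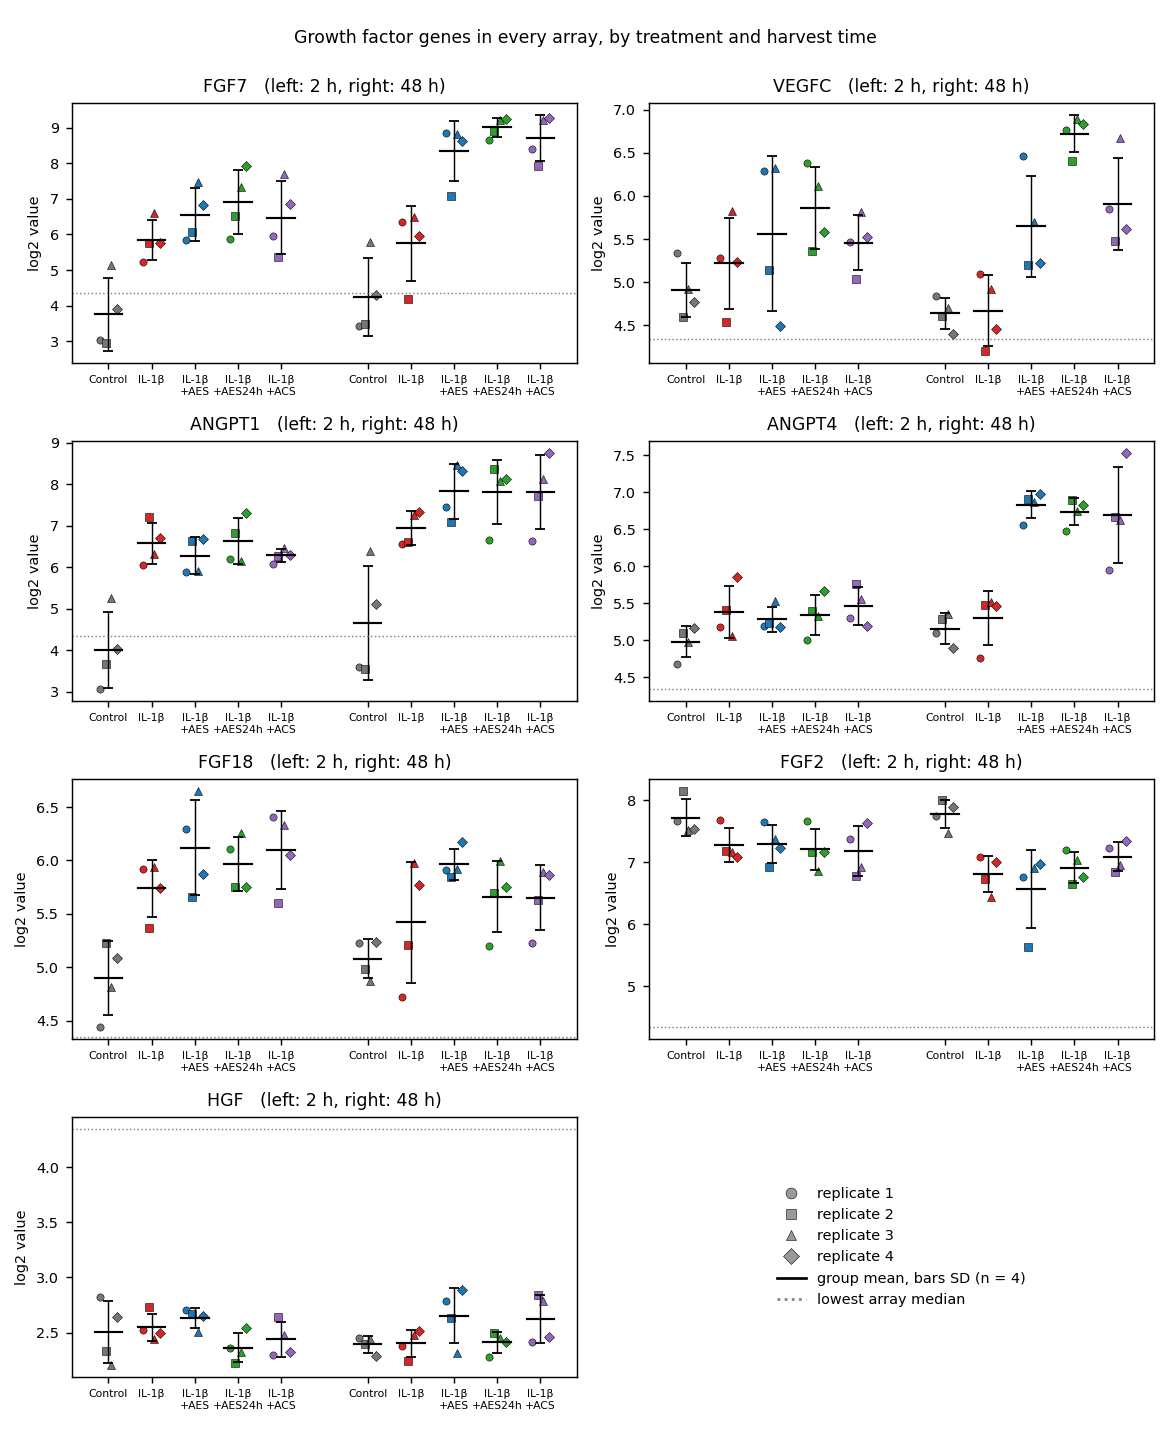
Log2 values of the 7 growth factor genes in all 40 arrays, by treatment and harvest time, with group means and SD (n = 4). FGF7 and ANGPT1 were lowest in control pellets, ANGPT4 stood higher only in the serum groups at 48 h, and HGF lay under the lowest array median of 4.35 in every group.

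In a linear model over all 40 arrays (limma, p adjusted over 30559 probe sets, threshold 0.05), FGF7, FGF18 and ANGPT1 rose with IL-1β at 2 h, 3 of 7 genes where 1.56% of all probe sets rose. At 48 h ANGPT1 rose, where 0.484% of all probe sets did, and FGF2 fell, where 0.779% did. The median difference of the 7 genes was 0.40 at 2 h and 0.15 at 48 h, beside 0.04 over all probe sets at both times. None of the 7 differed between any serum and IL-1β alone at 2 h by limma, and 0 of 7 had an unadjusted p under 0.05, where 7.33%, 5.28% and 5.22% of all probe sets did for AES, AES24h and ACS. In the same comparisons 0.0164% of probe sets were called for AES, 0.0229% for AES24h and 0.0262% for ACS, and 0.0458% for the mean of the 3 sera.

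At 48 h, 2 of 7 genes rose over IL-1β alone with AES (FGF7 and ANGPT4), where 0.154% of all probe sets rose. With AES24h 3 rose (FGF7, VEGFC and ANGPT4), where 0.164% did, and with ACS 2 rose (FGF7 and ANGPT4), again where 0.164% did. For the mean of the 3 sera FGF7, VEGFC and ANGPT4 rose, where 0.432% of all probe sets did. The median difference of the 7 genes from IL-1β alone was 0.88 for that mean, beside -0.01 over all probe sets. These 4 comparisons share the same 4 IL-1β arrays, so they are not independent of each other.

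**Figure D2:**
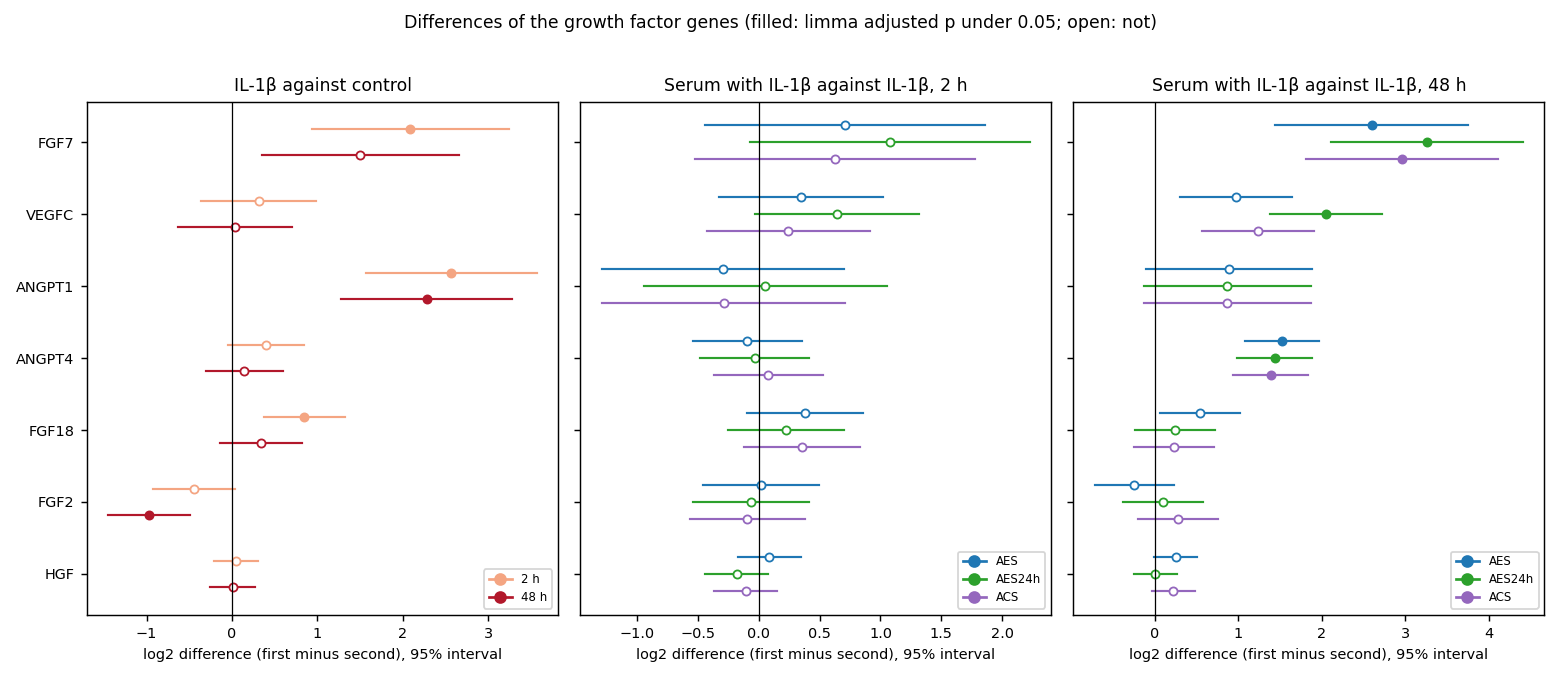
Log2 differences with 95% confidence intervals for the 7 genes, for IL-1β against control and for each serum with IL-1β against IL-1β alone at each time. Filled points passed limma's adjusted threshold of 0.05. At 48 h the intervals of FGF7, VEGFC and ANGPT4 lie above 0 with all 3 sera. VEGFC passed the adjusted threshold with AES24h alone in this fit, which has no replicate term. At 2 h no interval of a serum comparison excludes 0.

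FGF7 had the widest range of the members, from a group mean of 3.76 to 9.01. Its values in control pellets at 2 h were 3.04, 2.94, 5.15 and 3.9 for replicates 1 to 4, and with IL-1β they were 5.24, 5.77, 6.59 and 5.77. Every IL-1β array was above every control array. The difference was 2.09 (SE 0.57, limma adjusted p = 0.0232). Because the control mean lay below every array median, this is a direction and not an exact fold. The call was lost without control replicate 1 (0.112) or 2 (0.095) and without IL-1β replicate 3 (0.102) or 4 (0.0506). In the later harvest the control values were 3.42, 3.49, 5.79 and 4.30 and the IL-1β values 6.36, 4.19, 6.48 and 5.96. IL-1β replicate 2 was far below the other 3 and lay inside the control range. The difference at 48 h was 1.5 (95% interval 0.35 to 2.65), with a limma adjusted p of 0.291. With replicate number as a fixed block the adjusted p was 0.0105, and with a random block it did not pass.

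With the sera at 2 h, FGF7 read 5.85, 6.06, 7.47 and 6.84 for AES, 5.89, 6.52, 7.34 and 7.93 for AES24h, and 5.95, 5.37, 7.69 and 6.87 for ACS. It differed from IL-1β alone by 0.71 for AES, 1.08 for AES24h and 0.63 for ACS, and the groups overlapped each time. After 48 h the AES arrays read 8.85, 7.09, 8.83 and 8.62, the AES24h arrays 8.66, 8.91, 9.23 and 9.23, and the ACS arrays 8.40, 7.94, 9.21 and 9.28. All 12 serum arrays were above the highest IL-1β array, and the lowest of them was AES replicate 2. The increase over IL-1β was 6.05-fold with AES (log2 2.60, SE 0.57, limma adjusted p = 0.027). It was 9.56-fold with AES24h (3.26, adjusted p = 0.0052) and 7.77-fold with ACS (2.96, adjusted p = 0.0125). For the mean of the sera it was 7.66-fold (2.94, SE 0.46, adjusted p = 0.000638).

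The single IL-1β replicate 2 weighed on these FGF7 results. Without it the difference was 2.08 for AES (adjusted p = 0.191) and 2.44 for ACS (adjusted p = 0.102). Fitted to the compared groups alone, the adjusted p was 0.203 for AES and 0.12 for ACS. The AES call was also lost without AES replicate 1 (0.0614) or 4 (0.118), and the ACS call without ACS replicate 3 (0.0537) or 4 (0.0794). No single array ended the call for AES24h or for the mean of the sera, but without every array numbered replicate 4 the adjusted p was 0.233 and 0.0658. Leaving out AES replicates 2 and 4 together gave 3.09 with an adjusted p of 0.0761 for AES.

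FGF7 in serum pellets also stood above the controls. At 2 h it was higher by 2.80, 3.16 and 2.71 for AES, AES24h and ACS, and at 48 h by 4.10, 4.76 and 4.46 (limma adjusted p at 48 h = 5.13e-06, 3.85e-07 and 1.19e-06). No single array ended any of these 6 FGF7 calls. FGF7, FGF18 and ANGPT1 were the 3 of 7 genes that rose over control with each serum at 2 h, where 2.58%, 2.07% and 2.41% of all probe sets rose. After 48 h, 4 of 7 rose with each serum, where 3%, 1.61% and 1.69% of all probe sets rose. FGF2 alone of the 7 fell, with AES and AES24h, where 4.75% and 1.93% did. In order of group means, FGF7 was lowest in the 2 control groups, then in the 2 IL-1β groups and the 3 serum groups at 2 h, and highest in the 3 serum groups at 48 h. Neighbours in that order were separated by more than the larger of their SDs only between the controls and IL-1β at 48 h, and between AES24h at 2 h and AES at 48 h.

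FGF2, a heparin-binding growth factor held in the pericellular matrix of cartilage, moved the other way. In control pellets at 48 h it read 7.75, 8.0, 7.48 and 7.9, and with IL-1β it read 7.08, 6.72, 6.43 and 7.01. No IL-1β array reached the lowest control array. FGF2 fell by 0.97 on the log2 scale (SE 0.23, limma adjusted p = 0.0227), to 0.511 of the control level. This call was lost without control replicate 1 (0.062), 2 (0.105) or 4 (0.0858) and without IL-1β replicate 2 (0.0699) or 3 (0.113). In the early harvest the difference was -0.44 (95% interval -0.92 to 0.03, adjusted p = 0.412), and IL-1β replicate 1 at 7.68 lay within the control range.

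The sera left FGF2 close to IL-1β alone, at -0.24, 0.10 and 0.28 for AES, AES24h and ACS at 48 h, and the 3 95% intervals together spanned -0.72 to 0.75. Against control at 48 h FGF2 fell by 1.21 with AES (adjusted p = 0.000634) and by 0.87 with AES24h (adjusted p = 0.0255). With ACS the difference was -0.69 (limma adjusted p = 0.108), although no ACS array overlapped the controls. The AES24h call was lost without control replicate 1 (0.0596), 2 (0.102) or 4 (0.0841) and without AES24h replicate 2 (0.0983) or 4 (0.0874). The AES values were 6.76, 5.63, 6.9 and 6.98, of which replicate 2 was the lowest by far, and without AES replicates 2 and 4 the difference was -0.95 (adjusted p = 0.0273). In order of group means only the step from AES at 2 h to the controls exceeded the larger SD.

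FGF18, a ligand that promotes cartilage matrix formation, was 4.44, 5.23, 4.82 and 5.09 in control pellets at 2 h. With IL-1β it was 5.92, 5.36, 5.94 and 5.74, and the groups did not overlap. It rose 1.8-fold (log2 0.85, SE 0.24, limma adjusted p = 0.0275). That call was lost without control replicate 1 (0.163) or 3 (0.0737) and without IL-1β replicate 1 (0.0813), 3 (0.094) or 4 (0.0632). Later, at 48 h, the IL-1β values were 4.73, 5.21, 5.98 and 5.77, and 2 of 4 lay within or below the control range of 4.87 to 5.24. The difference there was 0.34 (adjusted p = 0.686).

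With serum and IL-1β, FGF18 was above control at 2 h by 1.22, 1.07 and 1.2 for AES, AES24h and ACS (adjusted p = 0.000583, 0.00272 and 0.000723), and no single array ended these calls. At 48 h it was above control with AES by 0.88 (adjusted p = 0.0151). That call was lost without AES replicate 4 (0.0654) and without AES replicates 2 and 4 together (0.171). Values for AES24h and ACS at 48 h were 0.58 and 0.57 (limma adjusted p = 0.256 and 0.242). Set against IL-1β alone, FGF18 differed by 0.38, 0.22 and 0.36 at 2 h and by 0.54, 0.24 and 0.23 at 48 h for AES, AES24h and ACS, none of which passed. No neighbours in the order of its 10 group means differed by more than the larger SD.

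VEGFC, the lymphatic growth factor, did not pass the test with IL-1β alone. Control arrays at 48 h read 4.84, 4.61, 4.70 and 4.40 and the IL-1β arrays 5.09, 4.20, 4.92 and 4.46, with overlapping ranges. The differences from control were 0.31 at 2 h and 0.03 at 48 h (95% interval -0.64 to 0.70). With AES24h at 48 h the values were 6.76, 6.41, 6.89 and 6.83, all far above IL-1β. VEGFC rose 4.15-fold over IL-1β in this group (log2 2.05, SE 0.33, limma adjusted p = 0.00183). The IL-1β mean of 4.67 lay only just above the array medians, so the fold is approximate. No single array ended the call, while without every array numbered replicate 4 the adjusted p was 0.0684.

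The AES values of VEGFC at 48 h were 6.46, 5.2, 5.70 and 5.22, and the ACS values were 5.85, 5.48, 6.67 and 5.61. Both groups lay wholly above IL-1β alone, but the differences of 0.98 and 1.23 did not pass (limma adjusted p = 0.212 and 0.121). With replicate number as a fixed block both passed (limma adjusted p = 0.0185 and 0.00327). With a random block ACS passed (0.0291) and AES did not. The mean of the 3 sera was above IL-1β by 1.42 (SE 0.27, adjusted p = 0.00378) with 12 of 12 serum arrays higher. Without IL-1β replicate 2 that mean was 1.27 (adjusted p = 0.0574). Against control at 48 h VEGFC rose by 2.09 with AES24h (5.71e-05) and 1.27 with ACS (limma adjusted p = 0.0184). The value for AES was 1.01 (0.0531), and without AES replicates 2 and 4 it was 1.44 (0.0416). The AES difference from control also passed with a fixed (limma adjusted p = 0.00235) or random (0.0175) replicate block. It passed too among the upper 60% of probe sets (0.0356) and with array weights (0.0271). The ACS call was lost without control replicate 2 (0.05003) or 4 (0.0695), or without ACS replicate 3 (0.124).

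AES24h had the highest VEGFC mean of the 10 groups, 6.72 ± 0.22 (SD, n = 4), and its gap to the next, ACS at 48 h (5.90), exceeded the larger SD. The serum groups were also compared directly. There AES24h at 48 h exceeded AES by 1.08 (95% interval 0.41 to 1.75, limma adjusted p = 0.285) and ACS differed from AES24h by -0.82 (95% interval -1.49 to -0.15, adjusted p = 1). None of the 7 genes passed in any of the 6 comparisons between sera by limma, and 1 of 7 had an unadjusted p under 0.05 in 4 of them. The share of all probe sets with such a p was 4.04% for AES24h against AES at 2 h. At 48 h it was 11.7% for that comparison, 10.7% for ACS against AES and 2.47% for ACS against AES24h. Over all probe sets 0.00327% were called for AES24h against AES at 2 h and 0% in the other 5. The AES arrays at 2 h were widely spread for VEGFC, at 6.29, 5.15, 6.33 and 4.49. In the main model no serum passed against IL-1β or control at that time. Against control AES24h was higher by 0.95 at 2 h, which passed with a fixed (limma adjusted p = 0.00408) or random (0.0288) replicate block. The differences from IL-1β at 2 h were 0.35, 0.64 and 0.24 for AES, AES24h and ACS.

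ANGPT4, a ligand of TEK, differed with the sera at the later harvest. With IL-1β alone it read 4.76, 5.48, 5.52 and 5.46 at 48 h, of which replicate 1 was the lowest. With AES it read 6.56, 6.91, 6.87 and 6.98, with AES24h 6.48, 6.90, 6.75 and 6.83, and with ACS 5.95, 6.67, 6.62 and 7.53. All 12 serum arrays were above every IL-1β array, and the ACS arrays were the most spread. ANGPT4 rose 2.88-fold with AES (log2 1.53, SE 0.22, limma adjusted p = 0.000296). The increase was 2.70-fold with AES24h (1.43, adjusted p = 0.000838) and 2.62-fold with ACS (1.39, adjusted p = 0.00158). No single array ended these calls. When the fit held the compared groups alone, the adjusted p was 0.0556 for AES and 0.216 for ACS.

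At 2 h the difference of ANGPT4 between the mean of the sera and IL-1β was -0.02 (95% interval -0.38 to 0.35), and all 3 sera overlapped IL-1β. The serum effect at 48 h exceeded that at 2 h by 1.47 (SE 0.25, limma adjusted p = 0.0159), 1 of 7 members called higher where 0.0327% of all probe sets were. That call was lost without IL-1β replicate 2 (0.068) or 4 (0.0556) at 2 h, and without IL-1β replicate 1 at 48 h (0.0692). It was also lost without every array numbered replicate 2 (0.26), 3 (0.122) or 4 (0.187), and with a minimum of 1.5-fold. Within a serum, ANGPT4 rose from 2 h to 48 h by 1.55 with AES, 1.40 with AES24h and 1.23 with ACS (adjusted p = 9.38e-05, 0.000659 and 0.00218). The ACS call was lost without every array numbered replicate 2 (0.051), 3 (0.0639) or 4 (0.0994). A fit to the compared groups alone also ended it (0.125). Control and IL-1β pellets differed between harvests by 0.18 and -0.08. IL-1β itself left ANGPT4 at 0.40 and 0.15 from control at 2 h and 48 h, neither of which passed.

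Against control at 48 h ANGPT4 was higher by 1.67, 1.58 and 1.53 with AES, AES24h and ACS (limma adjusted p = 1.99e-06, 6.46e-06 and 1.03e-05), and no single array ended these calls. The 7 lowest group means lay between 4.98 and 5.46, and the next was 6.69 in ACS pellets at 48 h. That was the only step in the order larger than the SD of its groups.

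ANGPT1, the ligand that stabilises vessels through TEK, responded to IL-1β at both harvests. Its control values at 2 h were 3.07, 3.68, 5.25 and 4.02, and with IL-1β they were 6.06, 7.21, 6.32 and 6.70. All IL-1β arrays were above all controls, and control replicate 3 was the highest control for this gene as for FGF7. The difference was 2.57 (SE 0.49, limma adjusted p = 0.000667), a direction without an exact fold because the control mean of 4.01 lay below every array median. No single array ended this call.

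At 48 h control arrays read 3.59, 3.54, 6.40 and 5.11 and the IL-1β arrays 6.56, 6.62, 7.26 and 7.32, again without overlap. ANGPT1 rose by 2.28 (limma adjusted p = 0.00792). This was lost without control replicate 1 (0.0722) or 2 (0.0721), and with a fit to the compared groups alone (0.114). With the sera at 2 h it differed from IL-1β by -0.30, 0.05 and -0.29 for AES, AES24h and ACS. With the sera at 48 h it differed by 0.89, 0.87 and 0.87, with 9 of 12 serum arrays above all IL-1β arrays and no call (adjusted p = 0.541, 0.823 and 0.742). AES24h replicate 1 at 6.67 was well below the other 3 of its group, which were between 8.08 and 8.36. Against control the differences were 2.27, 2.62 and 2.28 at 2 h and 3.17, 3.15 and 3.15 at 48 h for AES, AES24h and ACS, all called. In the order of means the steps from the controls to the next group and from IL-1β at 48 h to the sera exceeded the larger SD.

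**Figure D3:**
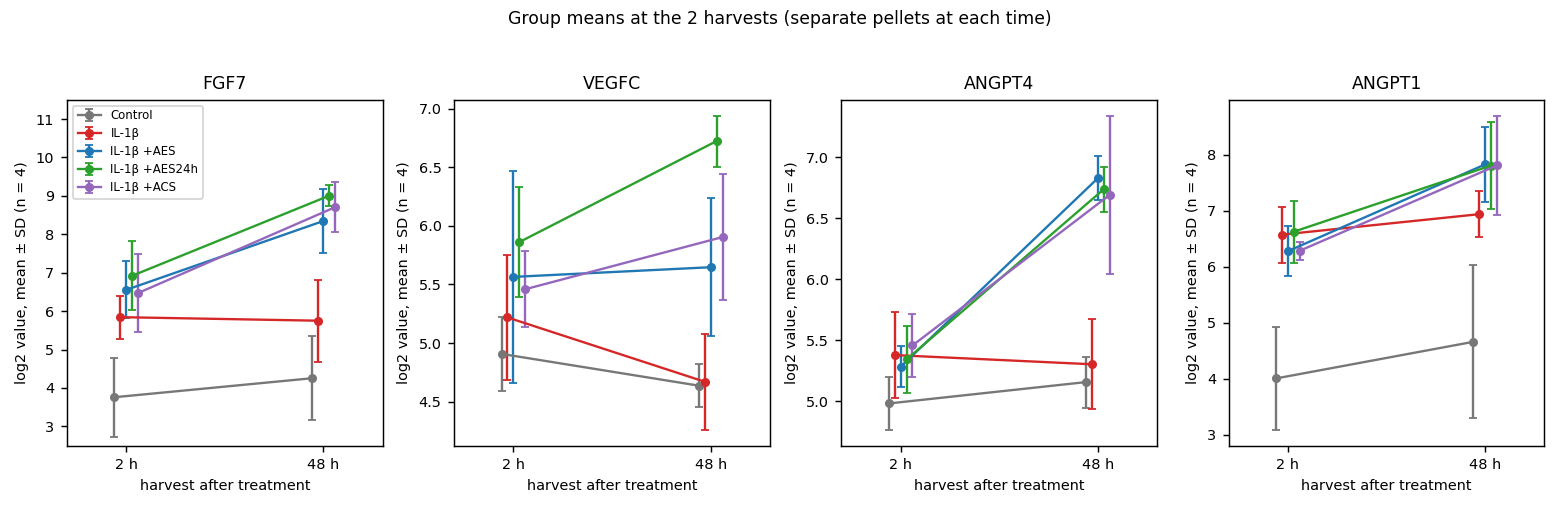
Group means with SD (n = 4) of FGF7, VEGFC, ANGPT4 and ANGPT1 at the 2 h and 48 h harvests, from separate pellets. Both times count from the serum step, after 48 h with IL-1β in all but the control pellets. ANGPT4 stayed between 4.98 and 5.46 in every group at 2 h and was at or above 6.69 only with serum at 48 h. ANGPT1 in IL-1β pellets was at 6.57 at the 2 h harvest.

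Comparing the harvests within a treatment, 1 of 7 genes rose with AES (ANGPT4, where 0.569% of all probe sets rose), 1 with AES24h (ANGPT4, 0.556%) and 2 with ACS (ANGPT4 and FGF7, 0.422%). None was called in controls (0.00327%) or with IL-1β alone (0.00654%) by limma, and 0 of 7 had an unadjusted p under 0.05 in either, where 5.23% and 6.98% of all probe sets did. FGF7 rose by 2.24 with ACS (adjusted p = 0.0457). That call was lost without ACS replicates 1 (0.106), 2 (0.193) or 4 (0.0658) at 2 h and without replicates 1 (0.0515), 3 (0.141) or 4 (0.133) at 48 h. For AES and AES24h FGF7 differed by 1.79 and 2.09 (limma adjusted p = 0.1 and 0.0584). Both passed with a fixed replicate block (limma adjusted p = 0.0022 and 0.000469) and with a random one (0.0293 and 0.0132). AES24h also passed among the upper 60% of probe sets (0.0378). The difference of the IL-1β effect between harvests was called for no member (0.00327% of probe sets) by limma, and 0 of 7 had an unadjusted p under 0.05, where 5.39% of all probe sets did. The effects of AES, AES24h and ACS taken singly were also called for none (0.00327%, 0.00654% and 0.00654%), with 2, 3 and 3 of 7 under an unadjusted p of 0.05, where 6.11%, 6.23% and 7.29% of all probe sets were.

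HGF had group means between 2.36 and 2.65, below every array median. Its 40 values are not shown to be above background, it was called in no comparison, and no direction is given.

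The members also resembled other genes across the 10 group means, among 1609 genes whose means spanned at least 1 on the log2 scale. These values describe group means that share arrays and normalisation, and carry no test. FGF7 was closest to PDE7B (Pearson r 0.99), a phosphodiesterase gene, followed by SRGN (0.98), a proteoglycan core protein, and EPAS1 (0.98), a hypoxia-inducible transcription factor. VEGFC was closest to DAAM2 (0.95), TIMP1 (0.93), an inhibitor of metalloproteinases, and IL11 (0.93). ANGPT4 was closest to MACC1 and NFATC4 (both 0.98), and ANGPT1 to CYBA, an NADPH oxidase subunit (0.99). FGF2 was closest to EVI2A (0.96) and FGF18 to NFKB2 (0.97), a subunit gene of NF-kB. Among the members themselves, r over the 10 group means was 0.93 for FGF7 with ANGPT1 and -0.89 for FGF2 with ANGPT1. Deviations of the 40 arrays from their group means gave r of 0.61 for FGF7 with ANGPT1, the highest of the pairs.

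Receptors, partners and related ligands were described from gene lists of each pathway. Over all probe sets 4.52% were called with IL-1β at 2 h and 1.26% at 48 h, and 0.0458% and 0.733% for the mean of the sera. An unadjusted p under 0.05 was found for 14.1% and 9.83% with IL-1β, and for 6.89% and 8.27% with the mean of the sera, at 2 h and 48 h. Of 21 measured FGF ligand genes, 2 rose and 0 fell with IL-1β at 2 h, and 0 rose and 1 fell at 48 h, and these were the members described above. The median over the list was 0.05 and 0.13, beside 0.04 over all probe sets. Of 19 measured FGF receptor, co-receptor and carrier genes, 1 rose and 3 fell with IL-1β at 2 h, and 1 rose at 48 h. FGFR2, the receptor gene whose splice form binds FGF7, fell by 0.85 (limma adjusted p = 0.042) and FGFR3, a receptor for FGF18, fell by 0.73 (0.0244) at 2 h. SDC2, a heparan sulfate syndecan, fell by 0.73 (0.0468), while SDC4, another syndecan, rose by 1.5 at 48 h (0.00313). KLB, the FGF co-receptor, was higher by 0.57 at 2 h (0.0212) with all group means below every array median.

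FGFR1, an FGF receptor gene, stayed between 8.79 and 9.18 in the 10 groups and was not called. FGFR4 lay below every array median. Single arrays ended the FGFR2 call in 6 cases, FGFR3 in 4, SDC2 in 6 and KLB in 4, most with IL-1β replicate 1 for FGFR2 (adjusted p = 0.183), control replicate 1 for FGFR3 (0.198), IL-1β replicate 4 for SDC2 (0.198) and control replicate 1 for KLB (0.134). No single array ended the SDC4 call. For the mean of the sera against IL-1β no gene of this list was called by limma, and 1 of 19 had an unadjusted p under 0.05 at each time.

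Of 19 genes of the FGF and ERK response list, ETV1, a transcription factor induced by FGF signalling, rose by 1.29 with IL-1β at 2 h (limma adjusted p = 0.00284), and none was called at 48 h, with 5 at an unadjusted p under 0.05. With the mean of the sera at 48 h, SPRY1, an inhibitor of receptor tyrosine kinase signalling, rose by 0.92 (adjusted p = 0.00554), from a mean of 4.87 in IL-1β to 5.81, 5.69 and 5.86 with AES, AES24h and ACS. That call was lost without IL-1β replicate 2 (0.0647). At 2 h none was called by limma, and 10 of 19 had an unadjusted p under 0.05, where 6.89% of all probe sets did, with a median of 0.36 beside 0.02 over all probe sets.

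The vascular receptors were low. KDR, the main VEGF receptor, lay between 2.99 and 3.28, and TEK, the angiopoietin receptor, between 2.67 and 2.97 in the 10 groups, all below every array median. FLT4, the receptor of VEGFC, lay between 4.42 and 4.76 and was not called. Of 12 VEGF pathway genes, NRP2, a co-receptor of FLT4, rose by 0.45 with IL-1β at 2 h (limma adjusted p = 0.0169), a call lost in 2 cases when 1 array was left out, most without control replicate 2 (0.0891). ADAMTS3, a protease that takes part in VEGFC activation, rose by 0.90 at 48 h (0.0363) from a control mean below every array median, lost in 4 such cases, most without control replicate 2 (0.239). With the mean of the sera at 48 h, VEGFC was the gene of this list called.

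Of 6 angiopoietin and Tie genes, only ANGPT1 passed with IL-1β at either time and only ANGPT4 with the mean of the sera at 48 h by limma. Among 6 angiopoietin-like genes, ANGPTL7, a secreted protein of the family, fell by 4.04 at 2 h and 4.70 at 48 h (adjusted p = 1.82e-09 and 4.88e-11), to group means of 5.03 and 5.28 from 9.07 and 9.98. ANGPTL2 fell by 1.21 at 2 h (0.0105) and ANGPTL4 rose by 1.05 (0.0334). Single arrays ended the ANGPTL2 call in 2 cases, most without control replicate 1 (0.0669), and the ANGPTL4 call in 4, most without IL-1β replicate 1, where the difference was 0.64 (0.238). For the mean of the sera no gene of this list was called by limma, with 1 and 2 of 6 at an unadjusted p under 0.05.

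MET, the HGF receptor, was not called with IL-1β at either time and fell by 0.57 with the mean of the sera at 48 h (limma adjusted p = 0.0312), from 8.68 to 7.93, 8.30 and 8.11 with AES, AES24h and ACS. It was the gene called of 10 in its list, and leaving out 1 array ended the call in 6 cases, most without IL-1β replicate 1 (0.171). Without AES replicates 2 and 4 its adjusted p was 0.0895. In the PDGF list of 6, PDGFRL, a receptor-like protein, fell by 1.68 and 1.54 with IL-1β at 2 h and 48 h (0.000185 and 0.00182). PDGFRB, the receptor for PDGF-BB and PDGF-DD, rose by 0.64 (0.0145) and PDGFD, a ligand, rose by 0.87 (0.018) with the mean of the sera at 48 h, PDGFD from an IL-1β mean below every array median. The PDGFRB call was lost without IL-1β replicate 2 (0.0876) or 4 (0.0786), and the PDGFD call in 3 cases, most without IL-1β replicate 2 (0.166). PDGFRA differed from control by -0.16 and 0.48 with IL-1β and was not called.

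**Figure D4:**
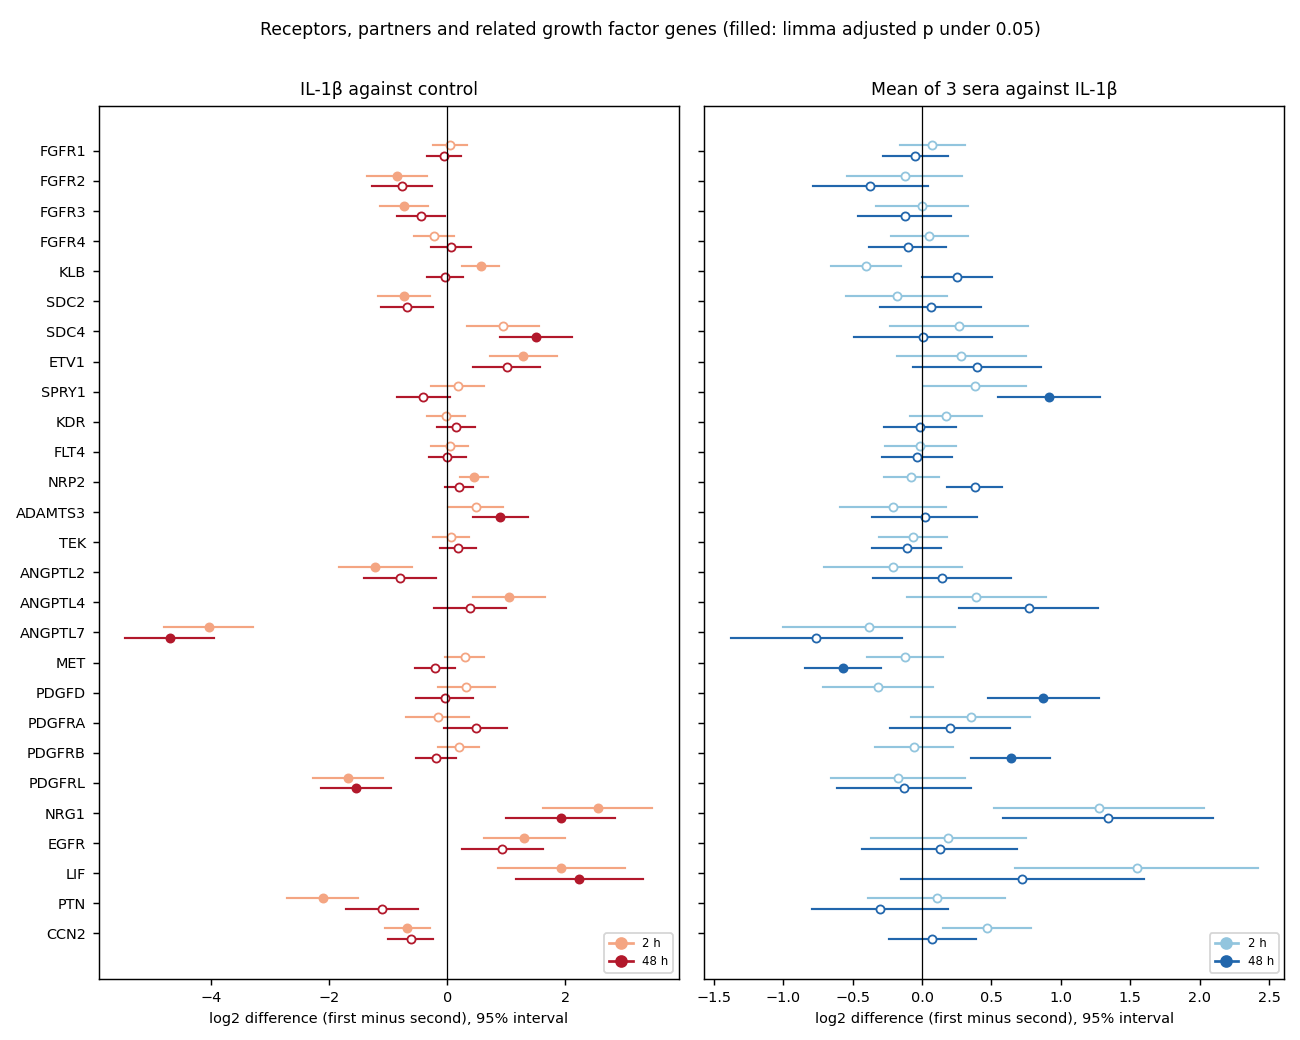
Log2 differences with 95% intervals for receptors, partners and related growth factor genes, for IL-1β against control and for the mean of the 3 sera against IL-1β alone at 2 h and 48 h. Filled points passed limma's threshold. ANGPTL7 fell by 4.04 and 4.70, SPRY1 and PDGFRB rose with the sera at 48 h, and FGFR1, KDR, FLT4 and TEK were not called.

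Of 15 EGF-type genes, NRG1, a ligand of the ERBB receptors, rose by 2.55 at 2 h (limma adjusted p = 0.000258) and 1.92 at 48 h (0.019) with IL-1β, from a control mean of 3.36 at both times, below every array median. EGFR, the EGF receptor, rose by 1.3 at 2 h (0.0155). The NRG1 call at 48 h was lost in 6 cases when 1 array was left out, most without IL-1β replicate 1 (0.0778), and the EGFR call in 2, most without IL-1β replicate 1 (0.111). Of 12 other secreted growth factors, LIF, a cytokine of the interleukin-6 family, rose by 1.93 and 2.24 (0.0235 and 0.0181), the latter from a control mean of 4.27 below every array median, PTN fell by 2.11 at 2 h (8.23e-06) and CCN2 fell by 0.67 at 2 h (0.0305). Each LIF call was lost in 3 such cases, at most 0.129 without IL-1β replicate 1 at 2 h and 0.0995 without IL-1β replicate 1 at 48 h, and the CCN2 call in 6, most without IL-1β replicate 4 (0.106). No gene of these 2 lists was called for the mean of the sera by limma, where 3 and 3 had an unadjusted p under 0.05 at 2 h and 2 and 3 at 48 h.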

How the data were processed

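Total RNA, 100 ng a sample, was hybridised to whole-transcript Affymetrix equine arrays. The log2 values were deposited by the authors as 1 value per probe set and array, and Affymetrix Expression Console, RMA and limma are named, per the submitters' processing notes, without versions. RMA is a background correction, quantile normalisation and probe summary, which shrinks any change shared by most transcripts. Of 30559 probe sets 16789 were listed with 1 gene symbol, 343 with several and 13427 not listed, and no sequence or position was used.

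Groups and replicate numbers came from the sample titles. A linear model with 10 group means was fitted to all 40 arrays with limma 3.58.1 in R 4.3.3 (30 residual degrees of freedom, empirical Bayes moderation with an intensity trend, no replicate term). Tests were two-sided with Benjamini-Hochberg adjustment over all probe sets, over 32 comparisons. A first group minus a second is given throughout.

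Named genes were all members, the genes with the largest moderated statistic among those called in each pathway list (up to 4), and 10 receptors in any case. The members and lists were chosen with earlier results of these data known. Scripts were tested on simulated data. The alternatives were a replicate block, a filter on low probe sets, other scalings, no trend, array weights, the spread of the compared groups alone, a 1.5-fold minimum, and arrays or replicate numbers left out. PDGFA was not analysed here.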

Additional observations from a re-analysis of the deposited data

Results flagged for a closer look

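In 70 sets of 4 arrays, 7 genes in 10 groups, 6 had 1 array far from the other 3 by Dixon's test at the 95% level, where chance gives about 1 set in 20. FGF7 in AES replicate 2 at 48 h was 7.09, and the nearest of the others was 8.62. FGF2 in the same array was 5.63, and the nearest was 6.76. FGF2 in IL-1β replicate 1 at 2 h was 7.68 against 7.18, and ANGPT4 in AES replicate 3 at 2 h was 5.53 against 5.24. ANGPT4 in IL-1β replicate 1 at 48 h was 4.76 against 5.46, and ANGPT1 in AES24h replicate 1 at 48 h was 6.67 against 8.08.

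The effect of the 3 sera on ANGPT4 differed between harvests, by 1.47 on the log2 scale at 48 h minus 2 h (limma adjusted p = 0.0159), with all 12 serum arrays above IL-1β at 48 h and 0 of 12 at 2 h. The call was lost without every array numbered replicate 2 (0.26), 3 (0.122) or 4 (0.187).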

How the results depend on the processing

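No call of a member changed direction under any alternative run, 9 changed settings and 44 leave-outs. Leaving out 1 array or replicate number gave 1 to 3 called members for IL-1β at 2 h (3 in full), 0 to 2 for IL-1β at 48 h (2 in full), 3 to 7 calls for each serum against IL-1β at 48 h (7), 1 to 3 for the mean of the sera at 48 h (3), 19 to 25 for serum against control (23), 2 to 5 between harvests (4) and 0 to 3 for effects at 48 h minus 2 h (1). All 44 leave-outs gave 0 for serum against IL-1β at 2 h and for serum against serum.

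With a minimum of 1.5-fold the counts were 1, 0, 0, 1, 14, 0 and 0 in the same order. With a fit to the compared groups alone they were 1 for IL-1β at 48 h, 3 for each serum at 48 h and 2 between harvests. The 1.5-fold minimum left the adjusted p of FGF7 and VEGFC with AES24h at 48 h at 0.119 and 0.165, and that of ANGPT4 for the mean of the sera at 0.0726. For the effects at 48 h minus 2 h the upper 60% of probe sets, quantile normalisation again and arrays centred on their medians each gave 2.

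The labels do not say that replicate numbers mark a shared source. Of 180 same-number pairs 98 correlated over 0.1, and the main model did not use the numbers as pairs. These are correlations of deviations from group means. The median r was 0.11 for the same number, and the -0.04 for different numbers in different groups follows largely from it. Likewise 36 of 40 arrays were closest to their own number, a likeness seen in the data and not given by the design. The main model ignores it, so some differences without a call there were called with a replicate block. With the replicate block fixed, there were 10 calls between harvests and 4 for effects at 48 h minus 2 h, and with the block random 7 and 3. Between harvests both blocks called FGF7 with AES and with AES24h. Against control both called VEGFC with AES24h at 2 h and with AES at 48 h. Calls appeared under the fixed block for FGF7 with IL-1β against control at 48 h (adjusted p = 0.0105) and for VEGFC against IL-1β at 48 h with AES (0.0185) and ACS (0.00327). Under the random block VEGFC with ACS was called (0.0291). The calls for each serum against IL-1β at 48 h then numbered 9 with the fixed and 8 with the random block, and neither block ended a call of a member. The lowest-mean probe set could not be tried, since 0 members had more than 1. The AES alternative, without replicates 2 and 4 at 48 h, was chosen after seeing the data. Signal over background limits HGF and the control values of FGF7 and ANGPT1, and VEGFC with IL-1β alone at 48 h lay only just above the array medians.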
